A study of Mus musculus with 19 samples.

Results

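The genes described here are 9 scavenger receptor genes of the mouse: Marco, Msr1, Colec12, Stab1, Stab2, Scarb1, Scarb2, Olr1 and Cd5l, the last of which encodes a secreted scavenger protein. They were chosen by symbol, whatever their values, from the 33919 gene identifiers of 1 deposited table. RNA was sequenced in 19 libraries of Kupffer cells, the macrophages that sit in the liver sinusoids, sorted from female C57BL/6 wild-type mice. Chow_EmKCs (n = 6 libraries) are resident cells of embryonic origin (EmKCs) from animals on chow, sorted as CLEC2+ TIMD4+. MCD_EmKCs (n = 6) were sorted in the same way after 4 weeks on a diet without methionine and choline (MCD), a common model of steatohepatitis. MCD_MoKCs (n = 7) are CLEC2+ TIMD4- cells of MCD-fed mice, which the labels class as monocyte-derived (MoKCs). There was no MoKC group on chow, so origin was compared on the MCD diet alone. The labels give no age and do not say which libraries come from separate animals, so p-values measure the spread between these libraries.

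Scavenger receptors fall into classes of differing structure, and many bind polyanionic or modified ligands: oxidised or acetylated lipoproteins, bacterial wall components, collagen fragments and dying cells. Class A receptors (Marco, Msr1, Colec12) are collagen-like trimers at the cell surface. Class B receptors (Scarb1, Scarb2) cross the membrane at both ends, stabilins (Stab1, Stab2) are large multidomain endocytic receptors, and the product of Olr1 is a C-type lectin. In the liver, Kupffer cells and sinusoidal endothelial cells between them clear most of these ligands from portal blood.

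Promoter sequence is shown for 3 genes whose levels separated the groups in different ways: Marco, highest after MCD in resident cells; Cd5l, lower in monocyte-derived cells; and Olr1, higher in them. RefSeq promoters of the GRCm38.p6 assembly were found for 6 of the 9 genes (Marco, Cd5l, Olr1, Scarb2, Stab1 and Stab2). The 250 bases before the start of each gene are given 5′ to 3′ on the gene's own strand, with searched motifs in capitals. Marco lies on the minus strand (chr1:120505025-120505274), Cd5l on the plus strand (chr3:87357631-87357880) and Olr1 on the minus strand (chr6:129507166-129507415).
Marco: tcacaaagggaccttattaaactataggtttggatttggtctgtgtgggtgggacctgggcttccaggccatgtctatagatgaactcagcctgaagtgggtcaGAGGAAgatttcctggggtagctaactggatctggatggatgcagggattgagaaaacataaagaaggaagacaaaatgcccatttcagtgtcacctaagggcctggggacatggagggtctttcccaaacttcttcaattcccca
Cd5l: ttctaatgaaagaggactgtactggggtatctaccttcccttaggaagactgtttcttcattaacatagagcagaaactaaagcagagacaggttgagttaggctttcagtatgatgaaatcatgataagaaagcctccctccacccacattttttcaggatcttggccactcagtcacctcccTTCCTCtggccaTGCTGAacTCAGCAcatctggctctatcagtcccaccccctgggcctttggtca
Olr1: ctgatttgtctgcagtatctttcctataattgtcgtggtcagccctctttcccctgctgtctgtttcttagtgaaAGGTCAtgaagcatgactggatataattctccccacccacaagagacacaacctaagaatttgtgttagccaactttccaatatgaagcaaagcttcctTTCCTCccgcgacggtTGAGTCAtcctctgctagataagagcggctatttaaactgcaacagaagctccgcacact

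The capitals mark matches on either strand to the PU.1 core GAGGAA, the MAF half-site TGCTGA, the AP-1 site TGANTCA or the nuclear receptor half-site AGGTCA. The E-box was searched as CACGTG. The GC-rich element bound by SP factors was searched as GGGCGG, and the element bound by TBP as TATAAA. The core of the antioxidant response element was searched as TGACNNNGC. The Marco promoter held 1 PU.1 core, 146 bases before the start. The Cd5l promoter held a PU.1 core 66 bases before the start, read on the opposite strand, and 2 MAF half-sites that face each other across 2 bases, 54 and 46 bases before the start. Half-sites facing each other across at most 2 bases occurred in 4 of 27025 promoters (0.0148%), and at least a single half-site in 19.1%. The facing pair was not among the motifs listed, and its limit of 2 bases is the gap found in Cd5l. Its share is therefore a description and not a test. The Olr1 promoter held an AP-1 site at 60 bases, a PU.1 core at 76 bases and a nuclear receptor half-site at 175 bases before the start. These motifs were found in 7.93%, 28.3% and 16.0% of all promoters, in windows of 300 bases that run 50 bases past the start. Stab1 held a MAF half-site and a PU.1 core, Stab2 the nuclear receptor half-site, and Scarb2 a MAF half-site, the GC-rich element and the antioxidant response core. The E-box and the TBP element, present in 7.24% and 14.2% of all promoters, were found in 0 of the 6; the GC-rich element and the antioxidant core were present in 35.9% and 12.5%. A match is a run of letters and not a measured binding site. No match says only that those letters are not in this window.

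Levels are given as normalised reads, that is a gene's reads over the size factor of its library. Fold changes are on the log2(value + 1) scale with their standard error (SE). They were tested with limma over the 14875 genes that had at least 10 normalised reads in at least 6 libraries, with Benjamini-Hochberg adjustment and a threshold of 0.05. All 9 scavenger receptor genes were among them; Olr1 passed this filter only with the help of its MCD_MoKC libraries, which by itself favours a difference. Libraries held 11642240 to 30983487 reads. The 10 Kupffer cell markers examined, which include the sort genes Timd4 and Clec1b, summed to 21872 to 27858 reads per 1e+06 reads of the library (CPM) in Chow_EmKCs. They summed to 14953 to 20168 in MCD_EmKCs and 5473 to 7145 in MCD_MoKCs, where 9 of 10 were lower than in MCD_EmKCs. Clec4f, the Kupffer cell lectin, still had 13948 to 27160 normalised reads in the 7 MCD_MoKC libraries. Library numbers in the column names run up to 33 for one set and from 37 for another. The first set holds 3, 3 and 5 libraries of the 3 groups and the second 3, 3 and 2; the sources do not say what the numbers stand for.

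On the MCD diet, resident Kupffer cells carried 4.23 times the Marco and 3.55 times the Colec12 mRNA of cells on chow, while the other 7 genes did not pass the test. Monocyte-derived cells had less Marco, Colec12, Stab2, Cd5l and Scarb2 than resident cells of the same diet, and far more Olr1. Against chow resident cells, Marco, Stab2, Cd5l and Scarb2 were again lower in monocyte-derived cells, and Olr1 was higher. The first comparison called 2 of the 9 genes, both higher and 0 lower (limma; also 0 lower at an unadjusted p of 0.05, by edgeR and by DESeq2), where 4.08% of all genes tested were called (2.50% higher and 1.58% lower). The second called 1 higher and 5 lower against 10.5% of all genes (5.64% higher and 4.90% lower). The third called 1 higher and 4 lower against 16.8% (8.68% higher and 8.08% lower). The median log2 fold change of the 9 genes was 0.18, -0.59 and -0.46 in the 3 comparisons, where that of all genes tested was -0.04, 0.02 and -0.01. Each pair of comparisons shares a group of libraries, so their values for a gene are not independent. In such bulk libraries, fewer cells of a type and less RNA per cell cannot be told apart.

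**Figure D1:**
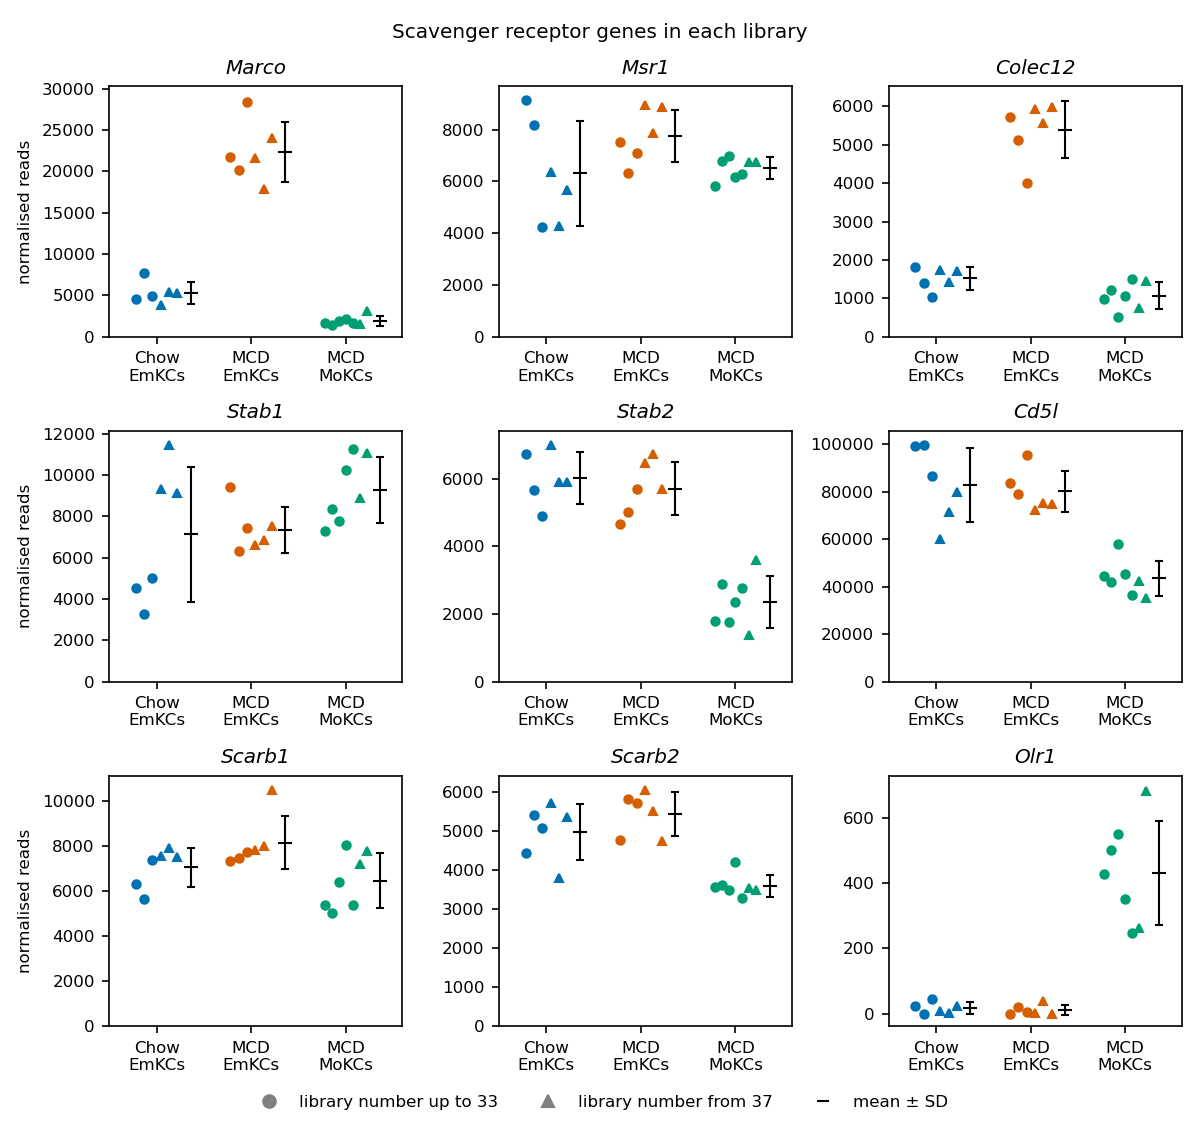
Normalised reads of each gene in each library (y axis, linear), by group (x axis). Points are libraries, circles those with library numbers up to 33 and triangles those from 37, and bars give the mean ± SD; Marco and Colec12 are highest in MCD_EmKCs, and Olr1 lies between 246 and 683 in MCD_MoKCs and at 45.99 or below elsewhere.

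Marco (ENSMUSG00000026390, mm10 chr1:120474538-120505024) encodes the class A receptor that binds bacteria and unopsonised particles. It had 3832 to 7666 normalised reads in Chow_EmKCs (median 5108), 17877 to 28448 in MCD_EmKCs (median 21723) and 1479 to 3115 in MCD_MoKCs (median 1704). The 3 groups did not overlap in any pair: every MCD_EmKC library was above every chow library, and every MCD_MoKC library was below both. With the diet the Marco mean went from 5275 ± 1299.8 (SD, n = 6) to 22315 ± 3624 (n = 6), a log2 fold change of 2.10 (SE 0.18, adjusted p = 7.2e-09). It was 1929 ± 570 (n = 7) in MCD_MoKCs, which is 8.64% of the MCD_EmKC mean (log2 fold change -3.56, SE 0.17, adjusted p = 4.18e-14). That was also lower than in Chow_EmKCs, by a log2 fold change of -1.46 (SE 0.17, adjusted p = 3.75e-07). Groups without overlap were found in 2.96%, 4.86% and 7.97% of all genes tested in the 3 comparisons. The diet difference was 2.06 within library numbers up to 33 and 2.14 within those from 37.

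Colec12 (ENSMUSG00000036103, chr18:9707595-9882644) encodes a collectin-type class A receptor that joins a collagen-like stalk to a C-type lectin head. Its normalised reads ran from 1027 to 1826 in Chow_EmKCs (median 1575), from 4010 to 5985 in MCD_EmKCs (median 5655) and from 522 to 1505 in MCD_MoKCs (median 1068). The MCD_EmKC libraries stood above all others, whereas Chow_EmKCs and MCD_MoKCs overlapped. With the diet the mean went from 1521 ± 298 to 5394 ± 746 (log2 fold change 1.84, SE 0.22, adjusted p = 2.63e-06). In MCD_MoKCs it was 1071 ± 359, 19.9% of the MCD_EmKC mean (log2 fold change -2.40, SE 0.21, adjusted p = 6.65e-09). Against Chow_EmKCs the log2 difference of -0.56 (SE 0.21, 95% interval -0.99 to -0.13) missed the threshold at an adjusted p of 0.0665. That last call hung on single libraries: the adjusted p was 0.0304 without Chow_EmKCs 3, 0.0308 without MCD_MoKCs 5 and 0.0343 without MCD_MoKCs 7. The diet difference was 1.83 and 1.85 within the lower and the higher library numbers.

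Msr1 (ENSMUSG00000025044, chr8:39581685-39642673) encodes the class A receptor for acetylated and oxidised low-density lipoprotein. Its normalised reads ran from 4236 to 9134 in Chow_EmKCs (median 6015), from 6341 to 8931 in MCD_EmKCs (median 7683) and from 5805 to 6984 in MCD_MoKCs (median 6734). All 3 groups overlapped, and the chow libraries were spread the most, with a coefficient of variation of 32.0% against 13.02% and 6.57%. The log2 difference was 0.35 with the diet (SE 0.16, 95% interval 0.02 to 0.68, adjusted p = 0.277), -0.25 between origins (-0.57 to 0.07, adjusted p = 0.369) and 0.10 between MCD_MoKCs and Chow_EmKCs (-0.22 to 0.42, adjusted p = 0.731). Within the higher library numbers the diet difference of Msr1 was 0.67, with the groups apart, and within the lower it was 0.03. The difference between those values, 0.64 (SE 0.31), had an adjusted p of 0.612.

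Because Msr1 overlapped between groups while Marco did not, the balance of these class A receptors differed within libraries. Per kb of exon, the ratio of Marco to Msr1 was 1.64 to 4.16 in Chow_EmKCs (median 3.09), 7.504 to 13.2 in MCD_EmKCs (median 9.24) and 0.717 to 1.52 in MCD_MoKCs (median 0.922). No library of a group fell within the range of another group. In 5 of 7 MCD_MoKC libraries Msr1 was the higher per kb, and in all 12 EmKC libraries Marco was. The median ratio of Marco to Colec12 was 15.5 in Chow_EmKCs, 17.5 in MCD_EmKCs and 8.94 in MCD_MoKCs, with overlap among all groups.

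**Figure D2:**
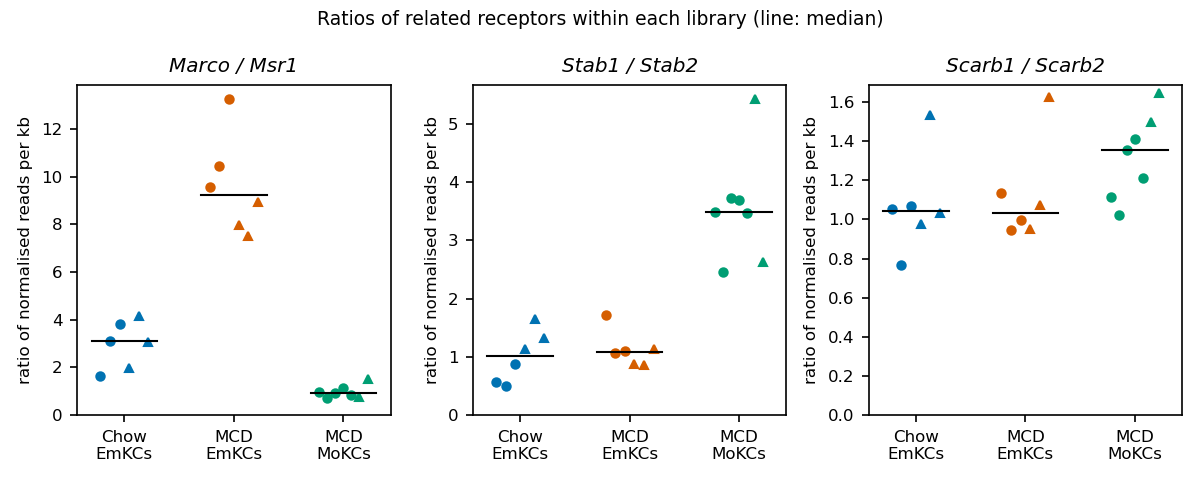
Ratio of normalised reads per kb of exon between related receptors within each library (y axes, linear, from 0), by group (x axis); circles are library numbers up to 33, triangles those from 37 and lines medians. The Marco to Msr1 ratio separates all 3 groups, the Stab1 to Stab2 ratio is 2.46 or more in MCD_MoKCs and 1.72 or less in the other groups, and the Scarb1 to Scarb2 ratio overlaps.

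Stab2 (ENSMUSG00000035459, chr10:86841198-87008025) encodes the hyaluronan clearance receptor, best known from sinusoidal endothelium. It had 4890 to 7008 normalised reads in Chow_EmKCs (median 5900.4), 4679 to 6730 in MCD_EmKCs (median 5700.2) and 1392 to 3587 in MCD_MoKCs (median 2363). The EmKC groups lay on top of each other and every MCD_MoKC library lay below them. The diet difference was -0.08 on the log2 scale (SE 0.18, 95% interval -0.45 to 0.30, adjusted p = 0.889). MCD_MoKCs had 2365 ± 770 against 5713 ± 794 in MCD_EmKCs (log2 fold change -1.33, SE 0.18, adjusted p = 5.83e-06) and 6019 ± 766 in Chow_EmKCs (-1.40, SE 0.18, adjusted p = 1.26e-06). The Stab2 transcript shares 141 exon bases with Gm16268 on the opposite strand, which was not used here, and the sources do not say whether reads were counted by strand.

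The 15 markers of sinusoidal endothelium examined moved with origin as well. They summed to 141 to 217 CPM in Chow_EmKCs, 145 to 315 in MCD_EmKCs and 159 to 825 in MCD_MoKCs, and 6 were higher, 1 (Pecam1) was lower and 8 did not pass the test in MCD_MoKCs against MCD_EmKCs. Against Chow_EmKCs, 11 were higher in MCD_MoKCs and 1 lower, and 3 were higher with the diet. None was at 0 in every library of a group. Pecam1 was the largest of the 15 in both EmKC groups, with means of 1504 normalised reads in Chow_EmKCs and 1148 in MCD_EmKCs. It had 462 in MCD_MoKCs, where Bmp2 was the largest (1417). In normalised reads, the 15 summed to 2641 to 3688 in Chow_EmKCs, 3263 to 5598 in MCD_EmKCs and 2917 to 16106 in MCD_MoKCs, where Stab2 had 4890 to 7008, 4679 to 6730 and 1392 to 3587. The part of endothelial RNA in the Stab2 values, and in the Stab1 values given below, was not tested.

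Stab1 (ENSMUSG00000042286, chr14:31139013-31168641) encodes the related endocytic receptor of alternatively activated macrophages and sinusoidal endothelium. Its normalised reads ran from 3267 to 11460 in Chow_EmKCs (median 7084), from 6308 to 9426 in MCD_EmKCs (median 7138) and from 7309 to 11257 in MCD_MoKCs (median 8880.3). The chow libraries formed separate blocks by library number: 3267 to 5037 in numbers up to 33 and 9131 to 11460 in numbers from 37. The log2 difference with the diet was therefore 0.86 within the lower numbers and -0.51 within the higher, with no overlap between the diets in either set. Pooled, it was 0.18 (SE 0.23, 95% interval -0.29 to 0.64, adjusted p = 0.768). The change of the diet difference between the sets, tested after the values had been seen, was -1.36 (SE 0.28, unadjusted p = 8.16e-05, adjusted p = 0.371). In that test 0 of 14875 genes passed the threshold in limma, with 1198 at an unadjusted p of 0.05; it was not run with another tool.

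Between origins the Stab1 difference was 0.33 (SE 0.22, 95% interval -0.12 to 0.77, adjusted p = 0.402). Between MCD_MoKCs and Chow_EmKCs it was 0.50 (SE 0.22, 0.05 to 0.95, adjusted p = 0.124). That value was 1.08 within the lower library numbers (adjusted p = 0.00182) and -0.0018 within the higher (adjusted p = 0.997). With the library number set as a term it was 0.59 (adjusted p = 0.0367), and without Chow_EmKCs 5 it was 0.67 (adjusted p = 0.0267). Stab1 shares 112 exon bases with Nt5dc2 on the opposite strand, whose highest value was 1082 normalised reads. Per kb, Stab1 over Stab2 was 0.490 to 1.65 in Chow_EmKCs (median 1.005), 0.866 to 1.72 in MCD_EmKCs (median 1.09) and 2.46 to 5.43 in MCD_MoKCs (median 3.48). Stab1 was the higher in every MCD_MoKC library. In Chow_EmKCs this ratio too went by library number, with 0.490 to 0.877 in numbers up to 33 and 1.13 to 1.65 in those from 37.

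**Figure D3:**
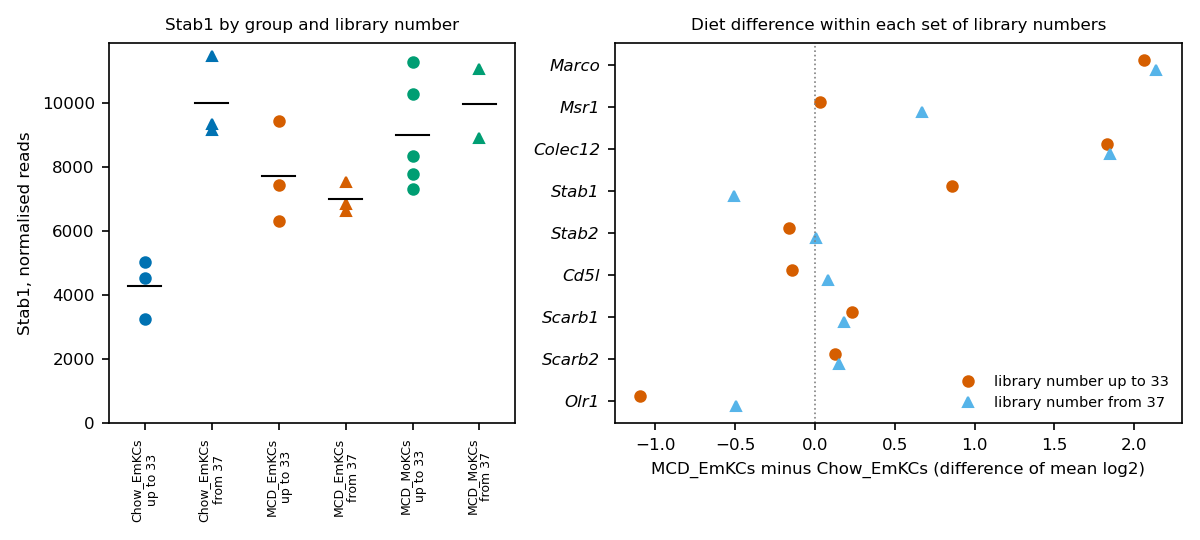
Left, normalised reads of Stab1 (y axis, linear, from 0) by group and library number set, with the mean as a line. Right, difference of mean log2(value + 1) between MCD_EmKCs and Chow_EmKCs (x axis) for each gene (y axis) within each set; Marco and Colec12 lie near 2 in both sets, and Stab1 lies at 0.86 in one and -0.51 in the other.

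Cd5l (ENSMUSG00000015854, chr3:87357881-87371073) encodes a soluble protein with scavenger receptor cysteine-rich domains, also called AIM, which circulates with IgM and is a known target of the liver X receptors in macrophages. It was the most abundant of the 9 genes per kb in every group, and ranked 19 among 13996 genes with an annotated exon length in Chow_EmKCs, 15 in MCD_EmKCs and 37 in MCD_MoKCs. Normalised reads ran from 60216 to 99689 in Chow_EmKCs (median 83158), from 72204 to 95270 in MCD_EmKCs (median 77136) and from 35236 to 57888 in MCD_MoKCs (median 42434). The highest MCD_MoKC library was below the lowest library of either EmKC group. The diet difference was -0.03 (SE 0.13, 95% interval -0.29 to 0.23, adjusted p = 0.936). MCD_MoKCs had 54.2% of the MCD_EmKC mean (43436 ± 7437 against 80080.5 ± 8466, log2 fold change -0.89, SE 0.12, adjusted p = 9.5e-06). Against the 82810 ± 15656 of Chow_EmKCs the log2 fold change was -0.93 (SE 0.12, adjusted p = 3.03e-06).

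Scarb2 (ENSMUSG00000029426, chr5:92441314-92506833) encodes LIMP-2, an abundant membrane protein of lysosomes. Normalised reads ran from 3802 to 5720 in Chow_EmKCs (median 5235), from 4762 to 6069 in MCD_EmKCs (median 5620) and from 3278 to 4201 in MCD_MoKCs (median 3549). MCD_MoKCs did not overlap MCD_EmKCs, and 6 of its 7 libraries were below every chow library. The diet difference was 0.14 (SE 0.13, 95% interval -0.12 to 0.40, adjusted p = 0.649). MCD_MoKCs had 3601 ± 287 against 5445 ± 554 in MCD_EmKCs (log2 fold change -0.59, SE 0.12, adjusted p = 0.00133) and 4976 ± 719 in Chow_EmKCs (-0.46, SE 0.12, adjusted p = 0.00825). These were the smallest of the called differences. The call against Chow_EmKCs was lost with fewer libraries: the adjusted p was 0.119 within library numbers up to 33, 0.197 within those from 37 and 0.0569 without MCD_MoKCs 4 to 7. The call against MCD_EmKCs was lost within the numbers from 37 (adjusted p = 0.138). The log2 differences themselves were -0.46, -0.48 and -0.47 in the first 3 of these and -0.62 in the last.

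Scarb1 (ENSMUSG00000037936, chr5:125277087-125341094) encodes SR-BI, the receptor for high-density lipoprotein (HDL) that takes up cholesteryl esters. Normalised reads ran from 5617 to 7890.4 in Chow_EmKCs (median 7434), from 7335 to 10480 in MCD_EmKCs (median 7763) and from 5017 to 8013 in MCD_MoKCs (median 6402). The groups overlapped, with 5 of 7 MCD_MoKC libraries below every MCD_EmKC library. The log2 difference was 0.21 with the diet (SE 0.14, 95% interval -0.08 to 0.49, adjusted p = 0.509), -0.35 between origins (-0.62 to -0.07, adjusted p = 0.107) and -0.14 between MCD_MoKCs and Chow_EmKCs (-0.42 to 0.14, adjusted p = 0.561). The middle value was -0.53 (adjusted p = 0.0334) without MCD_MoKCs 4 to 7. Per kb, Scarb1 over Scarb2 was 0.767 to 1.54, 0.947 to 1.63 and 1.02 to 1.65 in the 3 groups, with overlap throughout.

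Olr1 (ENSMUSG00000030162, chr6:129485244-129507165) encodes LOX-1, a lectin-like receptor for oxidised low-density lipoprotein. It was near the floor of detection in resident cells, with 0 to 45.99 normalised reads in Chow_EmKCs (median 15.1) and 0 to 38.96 in MCD_EmKCs (median 3.67). All MCD_MoKC libraries were far above, at 246 to 683 (median 427). Over all libraries of a group, the reads behind these values were 90, 68 and 3252, and 1 chow library and 2 MCD_EmKC libraries held no Olr1 read. The mean of 431 ± 159 in MCD_MoKCs was 38.8 times that of MCD_EmKCs (11.1 ± 15.6) and 25.7 times that of Chow_EmKCs (16.8 ± 17.4). These ratios rest on few reads: the first was 77.9 without MCD_EmKCs 5, and the second 39.5 without Chow_EmKCs 3. On the log2(value + 1) scale the differences were 6.31 (SE 0.92, adjusted p = 2.2e-05) and 5.51 (SE 0.92, adjusted p = 7.25e-05). The diet difference was -0.79 with an interval from -2.76 to 1.17 (SE 0.95, adjusted p = 0.747).

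Some markers of other cells were higher in MCD_MoKCs too, as Olr1 was. Some of these, such as Ly6c2, Nkg7, Klrd1 and Retnlg, passed the filter on low values only with the help of MCD_MoKC libraries. That by itself favours a difference. The 10 monocyte markers summed to 108 to 164 CPM in Chow_EmKCs, 79.9 to 114 in MCD_EmKCs and 380 to 689 in MCD_MoKCs. Of the 9 tested, 7 were higher in MCD_MoKCs than in MCD_EmKCs by limma (5 by edgeR and by DESeq2). Against Chow_EmKCs 6 were higher by limma and 1, Plac8, was lower. Plac8 was the largest of the list in both EmKC groups, with means of 2166, 1065 and 823 normalised reads in the 3 groups. In MCD_MoKCs the largest was Cx3cr1 (2833). The 10 T and NK cell markers summed to 3.74 to 9.94, 0.803 to 9.45 and 18.2 to 34.4 CPM, and 5 of 9 tested were higher (2 by edgeR and by DESeq2). The 8 platelet markers summed to 12.2 to 35.2, 46.3 to 76.6 and 89.6 to 245 CPM, and 1 of 3 tested was higher (1 by either other tool). That gene was Pf4, the largest of the list in each group, with a mean of 2970 normalised reads in MCD_MoKCs. There Treml1 had 129 and Itga2b 28.9, while Gp9, Gp1bb, Gp5, Tubb1 and Ppbp had 7.72 or below. The neutrophil list summed to 99.7 to 178, 88.4 to 154 and 85.3 to 267 CPM, and 1 of 5 tested was higher (0 by edgeR and 3 by DESeq2). Csf3r was the largest of that list, with means of 2523, 2174 and 1948 normalised reads in the 3 groups. Next was S100a8, with 21.4, 63.2 and 288. For B cell markers the sums were 12.2 to 33.4, 8.92 to 33.3 and 21.5 to 42.9 CPM (1 of 5 tested higher, 0 by edgeR and by DESeq2). Stellate cell markers summed to 27.8 to 41.6, 27.5 to 55.3 and 17.7 to 98.4 CPM, and 0 of 9 tested passed between origins in limma, edgeR or DESeq2 (1 higher and 1 lower at an unadjusted p of 0.05). Hepatocyte markers summed to 300.1 to 792 CPM in Chow_EmKCs, 37.5 to 264 in MCD_EmKCs and 38.4 to 92.5 in MCD_MoKCs, so they fell where Marco and Colec12 rose, with 8 of 15 lower after MCD. Of the same 15, 1 was lower between origins by limma (1 by edgeR and 2 by DESeq2). In MCD_MoKCs against Chow_EmKCs, 15 were lower by limma, 12 by edgeR and 13 by DESeq2. Col1a2, Vcan, Ngp, Lcn2, Gp1bb, Tubb1 and Ncr1 were at 0 in every Chow_EmKC library, and Ly6c2, Ngp and Tubb1 in every MCD_EmKC library. The part of these cells in the scavenger receptor differences was not tested.

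**Figure D4:**
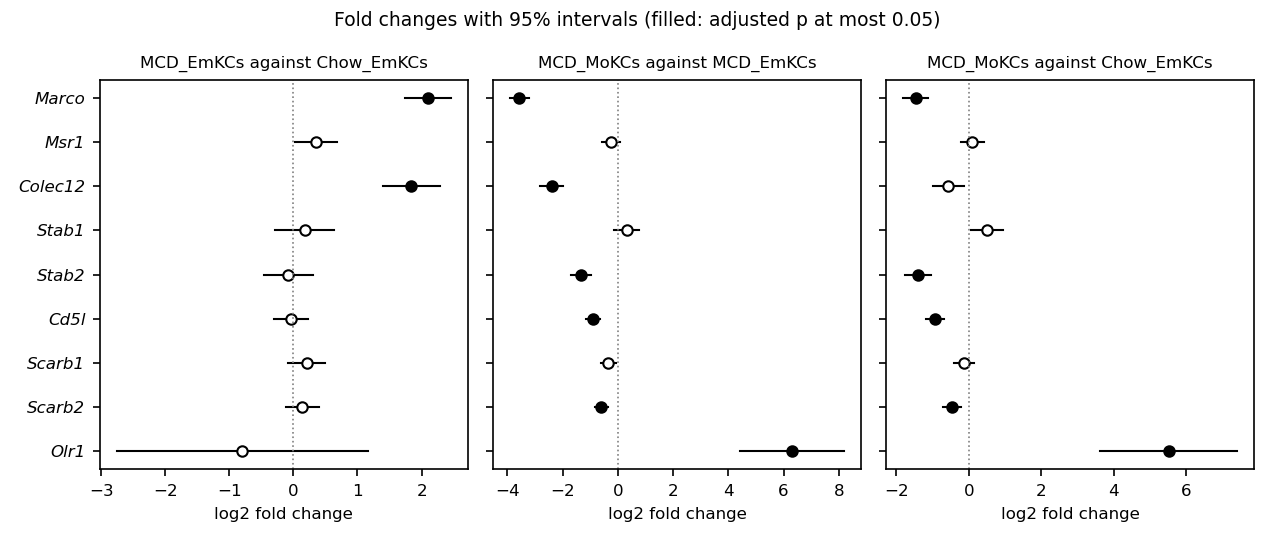
Log2 fold change of each gene (points) with its 95% interval (lines) in the 3 comparisons, each panel with its own linear x axis; filled points passed an adjusted p of 0.05 in limma. Marco and Colec12 are filled to the right in the diet panel, and Olr1 stands alone to the right in the other panels.

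Per kb of exon, the order of the 9 genes in Chow_EmKCs was Cd5l (mean 40673 normalised reads per kb), Marco (2740.5), Msr1 (994), Scarb1 (828), Scarb2 (792), Stab1 (692), Stab2 (687), Colec12 (174) and Olr1 (4.69). From Msr1 to Stab2, neighbours in this order overlapped. The gaps from Cd5l to Marco, Marco to Msr1, Stab2 to Colec12 and Colec12 to Olr1 were clear of overlap. In MCD_EmKCs the order was the same, but Marco stood at 11592 and Colec12, at 618, overlapped Stab2 at 652. In MCD_MoKCs the order after Cd5l (21334) was Msr1 (1025), Marco (1002), Stab1 (901), Scarb1 (759), Scarb2 (573), Stab2 (270.1), Colec12 (123) and Olr1 (121). There Marco overlapped Msr1 and Stab1, Scarb2 and Stab2 were apart, and Olr1 exceeded Colec12 in 4 of 7 libraries.

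**Figure D5:**
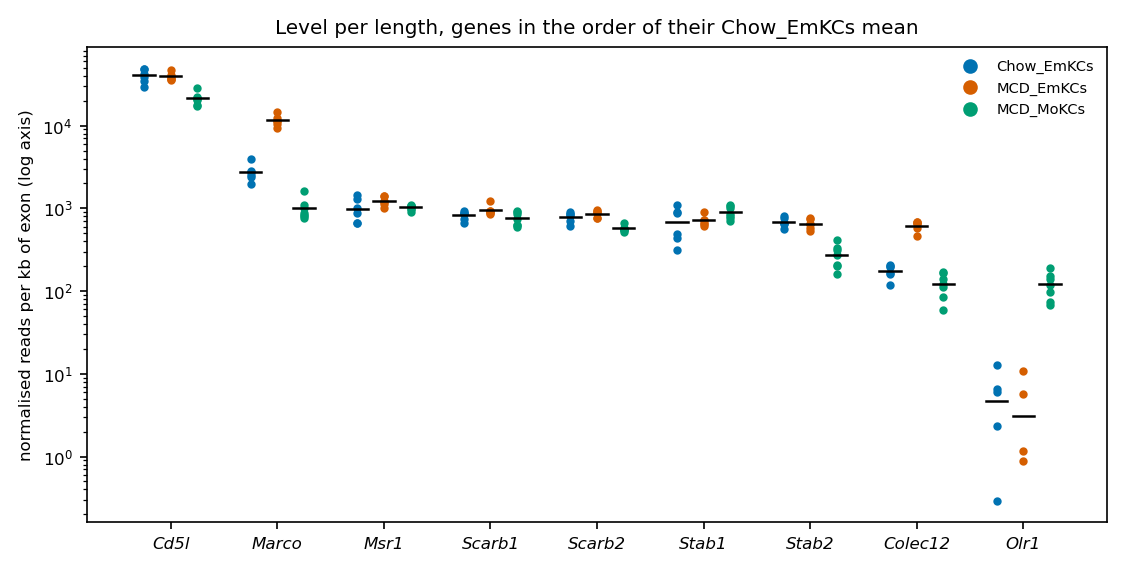
Normalised reads per kb of exon (y axis, log scale) for each gene (x axis, in the order of the Chow_EmKCs mean); points are libraries and lines means, and the 3 libraries at 0 for Olr1 cannot be drawn on a log axis. Cd5l is the highest in each group, and Colec12 in MCD_EmKCs reaches the level of the stabilins.

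The patterns of Olr1, Marco and Colec12 covered the widest range of group means, and the genes closest to each were found over the 19 libraries by the root mean square difference of centred log2 values. Closest to Marco were Ccdc148 (0.67), the fellow class A receptor Colec12 (0.69) and Asb2 (0.699), against a median of 1.69 over all genes tested. Asb2 had 1279 ± 329, 3547 ± 811 and 715 ± 273 normalised reads in the 3 groups. Closest to Colec12 were Arrdc3 (0.57), Btbd11 (0.62) and Asb2 (0.64), with a median of 1.33 over all genes. Closest to Olr1 were a gene with no symbol (ENSMUSG00000073527, 1.57), Gm13571 (1.71) and Fam78b (1.72), against 3.38. Gm13571 had 0.140 ± 0.344, 0.178 ± 0.437 and 142 ± 108 normalised reads. Like Olr1 itself, each of the genes named closest to it passed the filter on low values only with the help of its MCD_MoKC libraries. That by itself favours such a likeness.

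Of 20 other scavenger receptor and related genes, 13 could be tested. Their median log2 fold changes in the 3 comparisons were -0.07, 0.14 and 0.04. With the diet, Cd36, the class B receptor for fatty acids and oxidised lipoproteins, rose from 1122 ± 308 normalised reads to 6935 ± 1232 (log2 fold change 2.66, SE 0.20, adjusted p = 2.11e-09), and 0 fell (limma; 0 at an unadjusted p of 0.05, by edgeR and by DESeq2). Between origins, 1 was higher and 2 were lower in MCD_MoKCs. Cd163, the haemoglobin-haptoglobin receptor, fell from 21068 ± 3305 in MCD_EmKCs to 3662 ± 1708 in MCD_MoKCs (log2 fold change -2.65, SE 0.25, adjusted p = 1.41e-07). Mrc1, the mannose receptor, had a log2 fold change of -0.82 (SE 0.16, adjusted p = 0.00088) and Cd14, the lipopolysaccharide co-receptor, of 0.51 (SE 0.12, adjusted p = 0.0058). Against Chow_EmKCs, 2 were higher and 3 lower, and Cd36 was at 8473 ± 2518 normalised reads in MCD_MoKCs (log2 fold change 2.92, SE 0.20, adjusted p = 1.48e-11). Cd36 and Marco both rose with the diet. Between origins Cd36 did not pass the test (0.26, SE 0.20, adjusted p = 0.473), whereas Marco was lowest in MCD_MoKCs.

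All 13 transcription regulators listed for a possible action on scavenger receptor genes were tested, with median log2 fold changes of -0.07, -0.25 and -0.25. Whether they act on these genes here was not tested. With the diet, Pparg, which drives Cd36, rose from 355 ± 170.2 normalised reads to 868 ± 178 (log2 fold change 1.39, SE 0.25, adjusted p = 0.000906). Nr1h3, the liver X receptor of Kupffer cells, fell from 13671 ± 1642 to 8361 ± 572 (-0.70, SE 0.11, adjusted p = 0.000263), and Irf7 fell as well (-0.53, SE 0.15, adjusted p = 0.0381). Between origins 1 was higher and 4 were lower in MCD_MoKCs: Spic, an ETS factor of red pulp macrophages and Kupffer cells (-0.96, SE 0.18, adjusted p = 0.000456), and Rxra, the partner of the liver X receptors (-0.92, SE 0.17, adjusted p = 0.00065), fell the most, and Pparg was higher (0.80, SE 0.24, adjusted p = 0.0312). Against Chow_EmKCs 2 were higher and 4 lower, with Nr1h3 at 6808 ± 709 in MCD_MoKCs (-1.003, SE 0.11, adjusted p = 1.31e-07).

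Of the 13 genes that exchange cholesterol with HDL, the pathway of Scarb1, 12 were tested, with median log2 fold changes of -0.02, 0.01 and -0.26. With the diet Nceh1, which hydrolyses cholesteryl esters in macrophages, rose (log2 fold change 0.67, SE 0.16, adjusted p = 0.0122), and 0 fell (limma; 3 at an unadjusted p of 0.05, 0 by edgeR and by DESeq2). Between origins Apoc1 fell from 16920 ± 3223 normalised reads to 2560 ± 1298 (log2 fold change -2.85, SE 0.26, adjusted p = 6.53e-08). Against Chow_EmKCs 2 were higher and 2 lower.

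The 12 lysosomal genes around LIMP-2 were all tested, with median log2 fold changes of 0.09, -0.09 and 0.12. Cd63, a late endosomal tetraspanin, went from 49.8 ± 15.7 normalised reads in Chow_EmKCs to 1061 ± 366 in MCD_EmKCs and 6550.3 ± 1562 in MCD_MoKCs (log2 fold changes 4.40, SE 0.25, and 2.64, SE 0.24; adjusted p = 4.97e-12 and 1.74e-08). With the diet Ctsd also rose (0.64, SE 0.12, adjusted p = 0.00161). Between origins Psap, the precursor of the saposins that aid lysosomal sphingolipid breakdown, rose by 1.16 (SE 0.15, adjusted p = 2.93e-06). In both comparisons 0 fell (limma; 0 and 1 at an unadjusted p of 0.05, 0 by edgeR and by DESeq2), although the median was below 0 between origins. Against Chow_EmKCs 4 were higher in MCD_MoKCs and 0 lower (2 at an unadjusted p of 0.05, 0 by edgeR and by DESeq2). Scarb2 itself was lower in MCD_MoKCs, and none of these partner genes passed the test in that direction. Over all genes tested, 4.08%, 10.5% and 16.8% were called in the 3 comparisons.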

How the data were processed

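RNA-seq was measured in 19 libraries, grouped by their labels. The deposited table holds a signal that is whole reads divided by 1 size factor per library, here called normalised reads: 100% of values came out whole within a tolerance of 0.001 reads. STAR, DESeq2 and the mouse build mm10 are listed in the submitters' processing notes; which tool counted the reads, with which annotation and strand setting, is not given in the sources used here. Of 33919 identifiers, 29062 had a symbol. Positions and exon lengths are those of the GENCODE annotation of mm10, and promoters are RefSeq's for GRCm38.p6.

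Values were compared with limma (version 3.58.1, R 4.3.3), with variance trend and robust estimates, on log2(value + 1) for genes with at least 10 in at least 6 libraries. The model held 1 mean per group and no covariate, with Benjamini-Hochberg adjustment at 0.05, two-sided. The script was tested on simulated data. As alternatives, edgeR (version 4.0.16, quasi-likelihood) called 554, 1325 and 2086 genes on the recovered reads and DESeq2 (version 1.42.0) called 904, 1846 and 2588, where limma called 607, 1568 and 2493. Filters, pseudocounts, scalings, library number sets and single libraries were varied as well.

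The genes, the lists and the rules for naming genes were chosen with earlier results of these data known. From each other list at most the 3 called genes with the largest fold change are given per comparison, and some of these are not reported here. The interaction with library number was added after the values were seen. Depth was 11642240 to 30983487 reads. Reads carry no molecular identifiers, so error is taken from the spread between libraries. No pair of libraries in a group was near identical (median absolute log2 difference 0.452 or more).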

Additional observations from a re-analysis of the deposited data

Results flagged for a closer look

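In 3 of 27 sets of values (9 genes in 3 groups) the highest library stood apart from the rest of its group. Chance alone gives about 1 in 20. The sets share libraries and are not independent, and an excess over chance was not tested. Marco in MCD_MoKCs 7 was 3115.4 normalised reads, with the next library at 2106. Without it the log2 fold change of Marco was -3.68 against MCD_EmKCs and -1.59 against Chow_EmKCs, and both stayed called. Scarb1 in MCD_EmKCs 6 was 10479.8 normalised reads, with the next at 7989, and without it the log2 difference was 0.13 with the diet and -0.27 between origins. Scarb2 in MCD_MoKCs 4 was 4201.5 normalised reads, with the next at 3626, and without it the log2 fold change was -0.63 against MCD_EmKCs and -0.49 against Chow_EmKCs.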

How the results depend on the processing

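Over 405 fold changes of the scavenger receptor genes recomputed under alternative settings, 389 kept their direction and side of the threshold. So did 335 of 342 recomputed without 1 library. Counts of genes called, judged by whether they stayed within 1.5 times, are not part of these totals. Counts of all genes called fell where fewer libraries were used: with the diet to 179 (numbers up to 33) and 263 (from 37), between origins to 870, 565 and, without MCD_MoKCs 1 to 3, 1010, and for MCD_MoKCs against Chow_EmKCs to 1257 and 1288. Without single libraries they ranged from 468 to 602, 1288 to 1596 and 2193 to 2456, and the scavenger receptor genes called from 2 to 2, 6 to 6 and 5 to 6. Signs reversed only for differences that had not been called: Cd5l with the diet (0.082 from number 37; -0.12 to 0.026 without single libraries, above 0 without Chow_EmKCs 1 or 2), Stab2 with the diet (0.0064 from 37), Stab1 with the diet (-0.51 from 37; -0.021 to 0.34 without single libraries, below 0 without Chow_EmKCs 2) and against Chow_EmKCs (-0.0018 from 37), Msr1 against Chow_EmKCs (-0.092 up to 33) and Scarb1 against Chow_EmKCs (0.0024 without MCD_MoKCs 1 to 3). The cause was not tested.

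Same-numbered libraries correlated at -0.074 to 0.076 in their deviations from the group means, and some but not all matched their own number best. The check covers replicate numbers alone, so it cannot say whether libraries of different groups share animals. With the replicate block, limma called 608, 1658 and 2474 genes and 2, 7 and 6 scavenger receptor genes. Those added were Scarb1 between origins (-0.39, adjusted p = 0.0358) and Colec12 against Chow_EmKCs (-0.65, adjusted p = 0.0113). Only MCD_MoKCs has a replicate 7, so the block in effect leaves that library out of the comparisons. Without MCD_MoKCs 7 and with no block, the Colec12 value was also -0.65 (limma adjusted p = 0.0343). Rescaling by library totals moved the median of all genes by -0.089, 0.039 and -0.049. Depth limits Olr1 in EmKCs, at 90 and 68 reads per group.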

Other observations

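Olr1 lies in the lectin gene cluster of chromosome 6, and the other genes within 150 kb of it did not all move one way. Clec1b, which encodes the sort marker CLEC2, had 6605 ± 804, 7000.3 ± 778 and 5140 ± 1068 normalised reads in Chow_EmKCs, MCD_EmKCs and MCD_MoKCs, and was lower in MCD_MoKCs than in MCD_EmKCs (log2 fold change -0.47, SE 0.14, limma adjusted p = 0.0282). Clec12a, an inhibitory myeloid lectin, had 3076 ± 749, 3121 ± 400.3 and 3288 ± 840.4. Gabarapl1, an autophagy gene on the other strand, had 793 ± 220, 775 ± 112 and 1342 ± 239, and was higher in MCD_MoKCs than in MCD_EmKCs (0.79, SE 0.20, adjusted p = 0.00933). Klrk1, which encodes the NKG2D receptor, had 875 ± 318, 486 ± 157 and 314 ± 124, and was lower in MCD_MoKCs than in Chow_EmKCs (-1.49, SE 0.28, adjusted p = 0.000272). Klrd1, which encodes the NK cell receptor CD94 and is also among the T and NK cell markers, had 6.12 ± 12.6, 0.862 ± 2.11 and 39.1 ± 25.6. It was higher in MCD_MoKCs than in MCD_EmKCs (4.32, SE 1.04, adjusted p = 0.00604) and Chow_EmKCs (3.48, SE 1.04, adjusted p = 0.0192). Like Olr1, Klrd1 passed the filter on low values only with the help of its MCD_MoKC libraries, which by itself favours a difference. Clec9a and Clec1a did not pass the test in any comparison, and the remaining genes of the window were too low to be tested.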
